A study of Mus musculus with 8 samples.

Results

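The receptor, kinase, transcription factor and early target genes of the leukaemia inhibitory factor (LIF) pathway were followed in mouse pluripotent cells that were all grown with LIF. The 8 genes were Lifr, Il6st, Jak1, Stat3, Socs3, Socs2, Pim1 and Gbx2, of 14004 genes tested. They were taken by symbol from the platform annotation, by a rule that names no measured value, though with earlier results of these data known. The annotation gave these symbols to 26 of the 45101 probe sets on the array: Lifr 3, Il6st 4, Jak1 3, Stat3 4, Socs3 3, Socs2 6, Pim1 2 and Gbx2 1. All 8 genes and all 26 probe sets passed the filter on dim signals, and 4 of the 26 were at or under the signal floor in at least 1 array.

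The study hybridised RNA from induced pluripotent stem (iPS) cells and from embryonic stem (ES) cells to Affymetrix expression arrays, with 2 arrays for each of iPS line 2, iPS line 3, iPS line 1 and the ES control line. iPS cells are body cells reprogrammed to pluripotency, and the series describes its lines as free of integrated vectors. All lines were C57BL/6 and male, were maintained in N2B27 medium with mouse LIF, and were taken between passage 7 and passage 10. Each iPS group is 1 line, so a difference is one between these lines, and the array titles speak of biological replicates without saying whether the cultures were separate. All p-values thus rest on the spread of replicate arrays, part of which may be technical. Values are linear MAS5 signals, a brightness per probe set, and levels of different genes cannot be compared on them.

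LIF binds its receptor Lifr, which pairs with the shared signalling chain gp130, the product of Il6st. Janus kinases bound to the receptor, among them Jak1, then phosphorylate the transcription factor Stat3, which enters the nucleus. In mouse ES cells this pathway sustains self-renewal. Stat3 switches on Socs3, whose protein binds gp130 and Jak kinases and shuts the signal down again. Socs2 belongs to the same family of suppressors of cytokine signalling and is best known for restraining growth hormone signalling. Pim1, a serine/threonine kinase, and Gbx2, a homeobox transcription factor, are Stat3 targets for which a role in mouse ES cell self-renewal has been described.

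Sequences before a listed start of 3 genes whose signals differed between the iPS lines are given here, each as the 250 bases before a start listed for the gene in RefSeq (build GRCm38.p6), 5′ to 3′ on the gene's strand. For Socs3 the listed start lies inside RefSeq's full span of the gene, which begins further upstream, so its window is not upstream of the whole gene. Capitals mark the letters TTCNNNGAA, the pattern bound by STAT dimers, which as a pattern reads the same on both strands. It was found in 1 of the 9 windows of the 7 genes with an entry, that of Socs3, where it starts 154 bases before that listed start, and in 2306 of 32851 RefSeq windows of the same length, which is 7.02%. The windows lie at chr11:117969367-117969616 on the minus strand for Socs3, at chr17:29490535-29490784 on the plus strand for the first listed start of Pim1, and at chr1:89931177-89931426 on the minus strand for Gbx2.
Socs3: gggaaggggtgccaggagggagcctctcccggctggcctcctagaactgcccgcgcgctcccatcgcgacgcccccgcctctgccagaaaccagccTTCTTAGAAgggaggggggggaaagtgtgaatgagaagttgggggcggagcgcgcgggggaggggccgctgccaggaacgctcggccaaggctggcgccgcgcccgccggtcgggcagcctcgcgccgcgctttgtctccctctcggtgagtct
Pim1: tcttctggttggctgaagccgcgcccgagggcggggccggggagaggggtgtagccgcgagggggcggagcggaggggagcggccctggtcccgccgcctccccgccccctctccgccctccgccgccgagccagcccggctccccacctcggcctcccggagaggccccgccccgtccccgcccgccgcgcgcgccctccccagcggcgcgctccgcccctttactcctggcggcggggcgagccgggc
Gbx2: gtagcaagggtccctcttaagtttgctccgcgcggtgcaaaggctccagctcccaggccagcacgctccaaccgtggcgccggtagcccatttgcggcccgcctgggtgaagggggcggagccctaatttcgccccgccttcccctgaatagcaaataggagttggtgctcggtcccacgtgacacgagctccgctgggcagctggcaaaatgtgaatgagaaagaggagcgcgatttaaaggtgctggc
These letters were not found in the windows shown for Pim1 and Gbx2, which says only that this spelling is missing there.

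The arrays shared a common scale, with median signals of 62.3 and 64.3 in iPS line 2 and 54.1 to 59.9 in the other 6 arrays. All 8 markers of pluripotent cells stood over the signal floor of 37.1 in all 8 arrays, and their summed signal was 109276 and 106484 in iPS line 2, 105796 and 102284 in iPS line 3, 104464 and 98006 in iPS line 1, and 104034 and 111878 in the ES line. Dppa5a made the largest part of this sum in every array. Of these markers, Utf1 (702 and 542) and Pou5f1 (10646 and 9680) were lower in iPS line 2 than in all other arrays. The other arrays had 880 to 1202 and 10681 to 12035. Dppa5a (41673 and 38062) and Tdgf1 (21814 and 22504) were higher in iPS line 2 than in all other arrays. The other arrays had 32784 to 37665 and 19383 to 21584. Nanog, Sox2, Zfp42 and Fgf4 did not set it apart. iPS line 2 also stood apart in other measures. Its actin 3′ to 5′ signal ratio, a measure of RNA quality and labelling, was 1.74 and 1.79, against 1.49 to 1.62 in the other 6 arrays. The same ratio for Gapdh did not set it apart, with 0.915 and 0.946 against 0.856 to 0.935. The summed signal of 9 fibroblast markers was 496 and 444 in iPS line 2, 315 and 269 in iPS line 3, 283 and 287 in iPS line 1, and 274 and 257 in the ES line. Of these 9 markers, Col1a1, Postn and Dcn were at or under the floor in all arrays, and Pdgfrb, a receptor of mural cells and fibroblasts, had 247 and 177 in iPS line 2 against 24.5 to 58.2 elsewhere. Without Pdgfrb the sum was 249.5 and 267 in iPS line 2, 290 and 227 in iPS line 3, 225 and 235 in iPS line 1, and 216 and 201 in the ES line, so that iPS lines 2 and 3 overlapped. Every result below that involves iPS line 2 stands beside these values. Their part in it was not tested, beyond an alternative that centred each array on its median. In such bulk RNA, fewer cells of a type and less RNA per cell cannot be told apart.

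Differences were tested on log2(signal + 12.4) with limma over all 8 arrays, and an adjusted p under 0.05 over all 14004 genes counts as a change. Each value below is the signal of the brightest probe set of the gene unless another is named. Comparisons with the ES line share its 2 arrays, and likewise the comparisons of iPS line 2 share the arrays of that line. The 2 arrays per line limit the precision.

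The receptor genes did not pass the test in any of the 7 comparisons on the signals as deposited. Lifr (chromosome 15), the LIF-binding chain, had signals of 924 and 1249 in iPS line 2, 1138 and 1217 in iPS line 3, 1186 and 1413 in iPS line 1, and 1220 and 1107 in the ES line. The ranges of the 4 lines overlapped, and iPS line 2 alone held both the lowest of all 8 values and one of the highest. The log2 difference from the ES line was -0.11 for iPS line 2, with a 95% interval from -0.39 to 0.17, 0.02 for iPS line 3, from -0.26 to 0.30, and 0.15 for iPS line 1, from -0.13 to 0.44. Over the alternatives run, the difference of iPS line 2 from the ES line ranged from -0.54 to 0.10 and was never called. iPS line 2 differed from iPS line 1 by -0.27 (limma adjusted p 0.167), and this difference passed after median centring (-0.39, 0.0315) and without replicate 2 of iPS line 2 (-0.48, 0.0193).

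Il6st (chromosome 13), which encodes gp130, had 738 and 670 in iPS line 2, 744 and 848 in iPS line 3, 916 and 789 in iPS line 1, and 837 and 730 in the ES line. The ES values lay between the highest and the lowest iPS values. The mean of the 3 iPS lines differed from the ES line by -0.00 log2 units, with a 95% interval from -0.20 to 0.20. The largest difference of Il6st was that of iPS line 2 from iPS line 1, -0.27 ± 0.11 (SE, n = 2 arrays each), with a limma adjusted p of 0.108, and -0.39 with an adjusted p of 0.0215 after median centring.

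Jak1 (chromosome 4), the tyrosine kinase that works with gp130, was higher in iPS line 2 than in iPS line 3. Its signals were 775 and 929 in iPS line 2, 661 and 490 in iPS line 3, 595 and 700 in iPS line 1, and 769 and 680 in the ES line. Both values of iPS line 2 exceeded all other values, and both of iPS line 3 lay under both ES values. iPS line 2 exceeded iPS line 3 by 0.57 ± 0.15 log2 units (SE, n = 2 arrays each), or 1.48-fold, with a limma adjusted p of 0.0101. Against the ES line the difference was 0.23 in iPS line 2, -0.34 in iPS line 3 and -0.16 in iPS line 1, with limma adjusted p of 0.292, 0.251 and 0.697. The difference of iPS line 2 from iPS line 1 was 0.39 (0.0748), and it passed when replicate 1 (0.0423) or 2 (0.0410) of iPS line 3 was left out of the fit. The difference between iPS lines 2 and 3 missed the threshold without replicate 2 of iPS line 2 (0.44, adjusted p 0.0923) and without replicate 2 of iPS line 3 (0.35, adjusted p 0.119).

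Stat3 (chromosome 11), the transcription factor at the end of the relay, was higher in iPS line 2. Its signals were 1398 and 1527 in iPS line 2, 1236 and 1115 in iPS line 3, 1261 and 1217 in iPS line 1, and 1090 and 1192 in the ES line. Both iPS line 2 arrays were above the other 6, and iPS line 3 overlapped both iPS line 1 and the ES line. The log2 difference of iPS line 2 was 0.35 ± 0.09 from the ES line (SE, n = 2 arrays each), a 1.28-fold higher signal with a limma adjusted p of 0.00993. It was 0.31 ± 0.09 from iPS line 3, 1.24-fold, with an adjusted p of 0.0164, and 0.24 ± 0.09 from iPS line 1, with an adjusted p of 0.0726.
The Stat3 calls depended on the probe sets, the scaling and single arrays. With the mean of all 4 probe sets the differences were 0.08 (ES line) and 0.02 (iPS line 3), with adjusted p of 0.720 and 0.930, and after median centring of the arrays 0.27 (0.0847) and 0.18 (0.244). Leaving out ES replicate 1 gave 0.29 against the ES line (adjusted p 0.0977), and leaving out replicate 2 of iPS line 2 gave 0.29 (0.0746) and 0.25 against iPS line 3 (0.112). Without replicate 2 of iPS line 3 the difference from iPS line 3 was 0.24 (0.137).

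**Figure D1:**
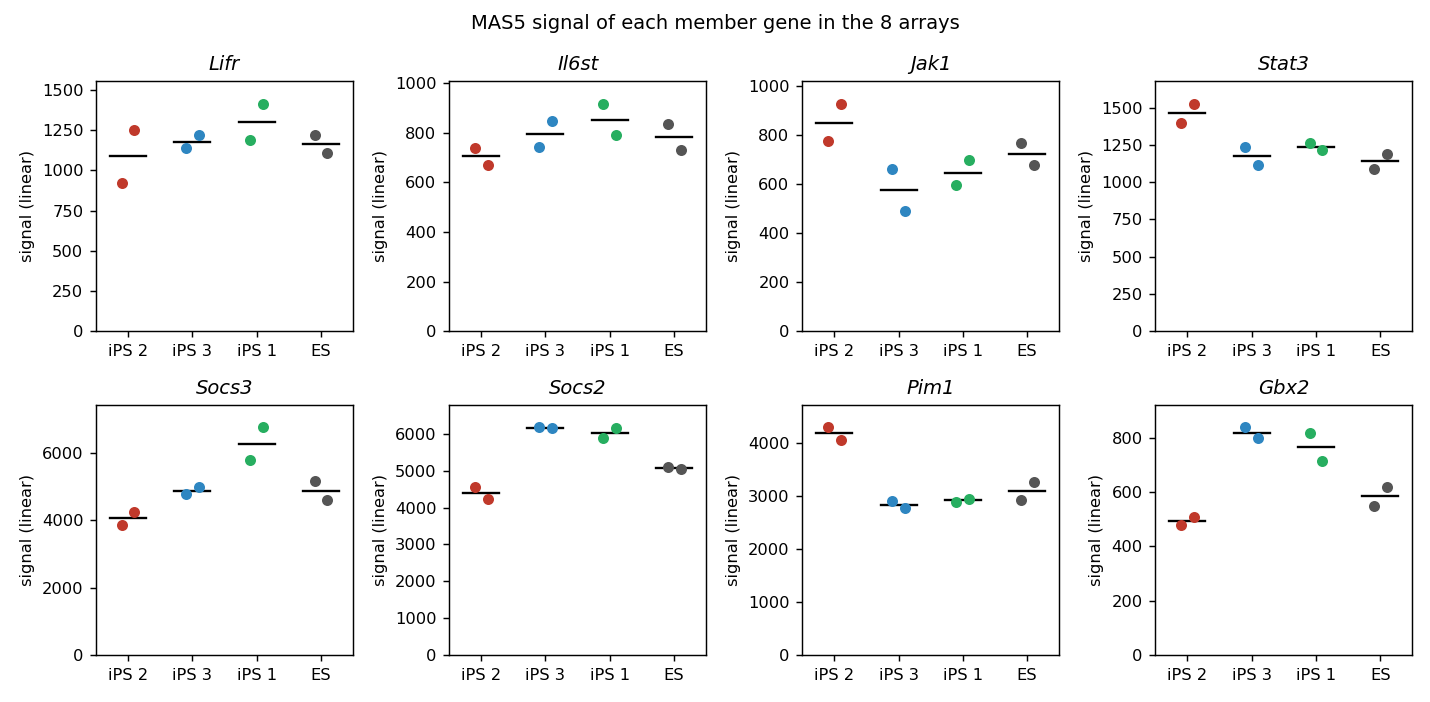
Signal of the brightest probe set of each of the 8 genes (linear MAS5 units, axis from 0 in each panel), with 1 point per array and a bar at the mean of the 2 arrays, for iPS line 2, iPS line 3, iPS line 1 and the ES control. The Pim1 values of iPS line 2, 4285 and 4058, lie above all others, and its Gbx2 values, 479 and 508, lie below all others.

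The feedback inhibitors Socs3 and Socs2 were both lower in iPS line 2 than in every other line tested here. Socs3 (chromosome 11), the inhibitor that Stat3 itself induces and the gene with the STAT pattern shown above, had 3860 and 4261 in iPS line 2, 4769 and 4978 in iPS line 3, 5795 and 6758 in iPS line 1, and 5171 and 4599 in the ES line. iPS line 2 was below and iPS line 1 above all the other arrays, and iPS line 3 lay within the range of the ES line. iPS line 2 fell below iPS line 1 by 0.62 ± 0.08 log2 units (SE, n = 2 arrays each), a 1.54-fold lower signal with a limma adjusted p of 0.000253. This difference passed the test under all 19 alternative settings.
Against the ES line, Socs3 was 1.20-fold lower in iPS line 2 (log2 difference -0.27 ± 0.08, limma adjusted p 0.0345), 1.28-fold higher in iPS line 1 (0.36 ± 0.08, 0.0461) and differed by -0.00 in iPS line 3, with a 95% interval from -0.18 to 0.18. iPS line 2 was also 1.20-fold lower than iPS line 3 (-0.26 ± 0.08, 0.0313). These 3 calls were lost under several alternatives. iPS line 3 minus iPS line 1 gave -0.36 (0.0597), and -0.39 (0.0470) after quantile normalization. Quantile normalization gave -0.19 for iPS line 2 against the ES line and -0.17 against iPS line 3, neither of them called. With the mean of its 3 probe sets, Socs3 lost all 3 calls. The differences from the ES line were then -0.20 in iPS line 2 (limma adjusted p 0.0761) and 0.30 in iPS line 1 (0.0787). That of iPS line 2 from iPS line 3 was -0.19 (0.0771). For iPS line 2 against the ES line the call was lost without ES replicate 1 (-0.18) or without replicate 1 of iPS line 2 (-0.19), and against iPS line 3 without replicate 1 of iPS line 2 (-0.19), replicate 1 of iPS line 3 (-0.29) or replicate 2 of iPS line 3 (-0.23). For iPS line 1 the call was lost under 11 of 20 alternatives, among them without ES replicate 1 (0.44), ES replicate 2 (0.27), replicate 2 of iPS line 1 (0.25) and either array of iPS line 3 (0.36 each). The probe set that stands for Socs3 has a name ending in _x_at, which marks probes that can also bind related sequences.

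Socs2 (chromosome 10) separated the lines with little spread between arrays. Its signals were 4556 and 4244 in iPS line 2, 6178 and 6152 in iPS line 3, 5905 and 6162 in iPS line 1, and 5098 and 5051 in the ES line. iPS line 2 stood below the ES line, and iPS lines 3 and 1 stood above it, with no overlap between the 3 levels. iPS line 2 was 1.40-fold lower than iPS line 3 (log2 difference -0.49 ± 0.06, SE, n = 2 arrays each, limma adjusted p 6.23e-05) and 1.37-fold lower than iPS line 1 (-0.46 ± 0.06, 0.000205). iPS line 3 and iPS line 1 differed by 0.03, with a 95% interval from -0.10 to 0.16.
Against the ES line, Socs2 was 1.15-fold lower in iPS line 2 (-0.21 ± 0.06, limma adjusted p 0.0219) and 1.21-fold higher in iPS line 3 (0.28 ± 0.06, 0.0205). In iPS line 1 the difference of 0.25 ± 0.06 had an adjusted p of 0.0515, and of 0.0350 after quantile normalization, 0.0389 with the stricter filter, and 0.0415, 0.0404 and 0.0398 without replicate 1, replicate 2 or both arrays of iPS line 2. Both calls against the ES line were lost when ES replicate 1 or ES replicate 2 was left out (-0.20 and -0.21 in iPS line 2, 0.29 and 0.27 in iPS line 3), that of iPS line 2 also without its replicate 2 (-0.16) or after quantile normalization (-0.14), and that of iPS line 3 without its replicate 1 or 2 (0.28 each). With the mean of all 6 probe sets, iPS line 3 differed from the ES line by 0.06 (adjusted p 0.828). In the same setting iPS line 2 differed from the ES line by -0.31 (0.0510) and from iPS line 1 by -0.28 (0.0839).

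**Figure D2:**
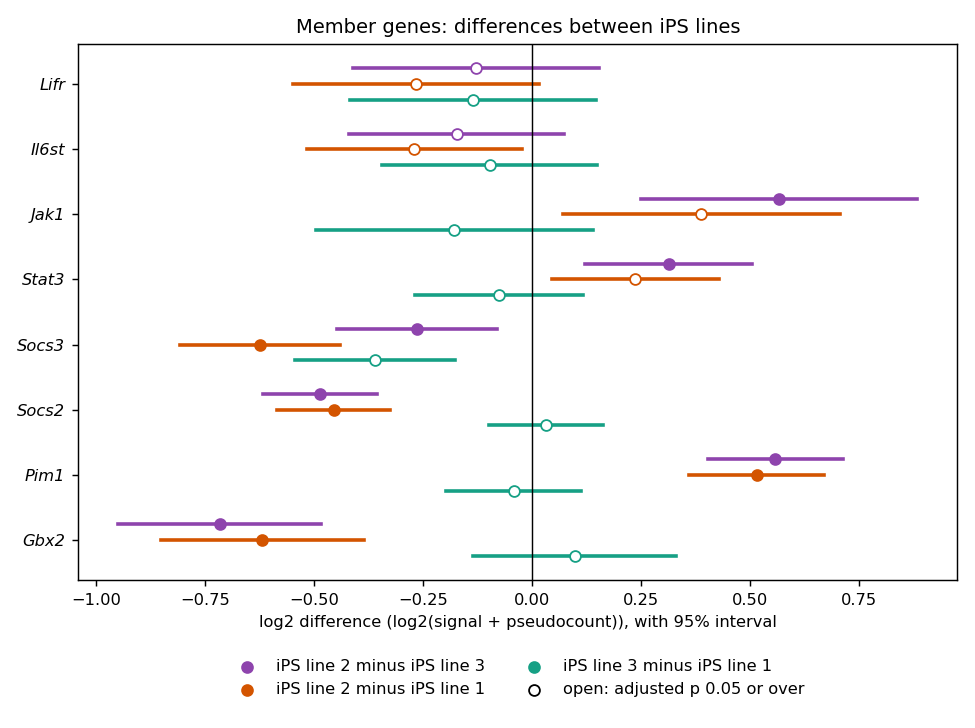
Log2 difference of each of the 8 genes between pairs of iPS lines, with points at the estimate, bars for the 95% interval, and filled points for a limma adjusted p under 0.05. Socs3, Socs2 and Gbx2 lie to the left of 0 and Pim1 to the right in both comparisons of iPS line 2, while no point for iPS line 3 minus iPS line 1 is filled.

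Pim1 (chromosome 17), the survival kinase and Stat3 target, was higher in iPS line 2 than in every other line. Its signals were 4285 and 4058 in iPS line 2, 2900.1 and 2764 in iPS line 3, 2889 and 2943 in iPS line 1, and 2913 and 3262 in the ES line. iPS line 2 was above all the other arrays, and iPS line 1 overlapped both iPS line 3 and the ES line. iPS line 2 averaged 4172 ± 160.2, against 3087 ± 246 in the ES line (SD, n = 2 each).
This was a 1.35-fold higher signal (log2 difference 0.43 ± 0.07, SE, limma adjusted p 0.000698). Pim1 was 1.47-fold higher in iPS line 2 than in iPS line 3 (0.56 ± 0.07, adjusted p 8.56e-05) and 1.43-fold higher than in iPS line 1 (0.51 ± 0.07, 0.000302). All 3 differences of iPS line 2 passed the test under all 19 alternatives. iPS lines 3 and 1 differed from the ES line by -0.12 and -0.08, with 95% intervals from -0.28 to 0.03 and from -0.23 to 0.07.

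Gbx2 (chromosome 1), the homeobox target, followed the order of Socs2. Its signals were 479 and 508 in iPS line 2, 838 and 800.3 in iPS line 3, 818 and 715 in iPS line 1, and 549 and 619 in the ES line. iPS line 2 lay below the ES line and iPS lines 3 and 1 above it, with no overlap between these 3 levels, while iPS lines 3 and 1 overlapped each other. Gbx2 was 1.64-fold lower in iPS line 2 than in iPS line 3 (log2 difference -0.72 ± 0.11, SE, n = 2 arrays each, limma adjusted p 0.000266) and 1.54-fold lower than in iPS line 1 (-0.62 ± 0.11, 0.00131). Both differences passed the test under all 19 alternatives. Gbx2 has 1 probe set, so the alternatives on the probe-set rule could not change its values.
Against the ES line, Gbx2 was 1.40-fold higher in iPS line 3 (0.48 ± 0.11, limma adjusted p 0.0253). The differences of 0.39 ± 0.11 in iPS line 1 and -0.23 ± 0.11 in iPS line 2 had adjusted p of 0.0956 and 0.132, and quantile normalization gave -0.34 (0.0340) in iPS line 2. The call for iPS line 3 was lost without ES replicate 1 (0.40) or 2 (0.57) and without replicate 1 (0.45) or 2 (0.52) of iPS line 3.

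**Figure D3:**
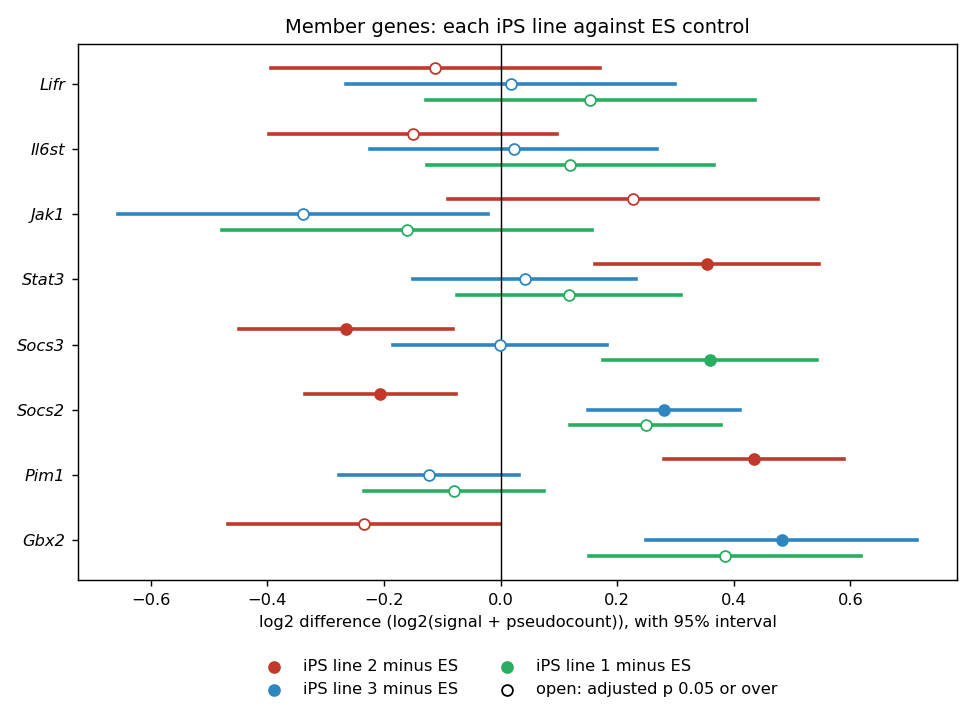
Log2 difference of each of the 8 genes from the ES control, for iPS lines 2, 3 and 1, with points at the estimate, bars for the 95% interval, and filled points for a limma adjusted p under 0.05. Filled points are Stat3, Socs3, Socs2 and Pim1 for iPS line 2, Socs2 and Gbx2 for iPS line 3, and Socs3 for iPS line 1.

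Counted by comparison, 4 of the 8 genes changed in iPS line 2 against the ES line, 2 higher (Stat3, Pim1) and 2 lower (Socs3, Socs2), where 26.7% of all genes tested were called, 16.1% higher and 10.6% lower. In iPS line 3 against the ES line 2 of 8 were higher (Socs2, Gbx2) and 0 lower, with 4.17% of all genes called, 1.59% higher and 2.58% lower. In iPS line 1 against the ES line 1 of 8 was higher (Socs3) and 0 lower, with 2.34% called, 1.21% higher and 1.12% lower. For the average of the 3 iPS lines against the ES line limma called 0 of 8, with 7.3% of all genes called, 4.27% higher and 3.03% lower. In that comparison 3 of the 8 and 3005 of the 14004 genes passed an unadjusted p of 0.05. Without iPS line 2, the mean of iPS lines 3 and 1 against the ES line called 2 of 8, Socs2 (0.26, adjusted p 0.0110) and Gbx2 (0.43, adjusted p 0.0231), with 3.51% of all genes called. Without limma's intensity trend the calls of Jak1 and Stat3 were lost, as were those of Socs3, Socs2 and Gbx2 against the ES line and that of Socs3 between iPS lines 2 and 3.

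Between the iPS lines, 6 of the 8 genes differed between iPS line 2 and iPS line 3, with Jak1, Stat3 and Pim1 higher and Socs3, Socs2 and Gbx2 lower in iPS line 2, where 31.1% of all genes were called, 19% higher and 12.1% lower. Between iPS line 2 and iPS line 1, Pim1 was higher and Socs3, Socs2 and Gbx2 were lower in iPS line 2, so that 4 of 8 were called beside 23.3% of all genes, 13.8% higher and 9.53% lower. Between iPS line 3 and iPS line 1 limma called 0 of 8 beside 1.41% of all genes, 0.35% higher and 1.06% lower, and 1 of the 8 and 1960 of all genes had an unadjusted p under 0.05. The median log2 difference of the 8 genes was -0.13 in iPS line 2, 0.02 in iPS line 3 and 0.14 in iPS line 1 against the ES line, beside 0.07, -0.01 and 0.01 over all genes. It was -0.15 for iPS line 2 minus iPS line 3 and -0.27 for iPS line 2 minus iPS line 1, beside 0.08 and 0.07 over all genes. Centring each array on its median moved the last 2 medians over all genes to -0.05 and -0.05.

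**Figure D4:**
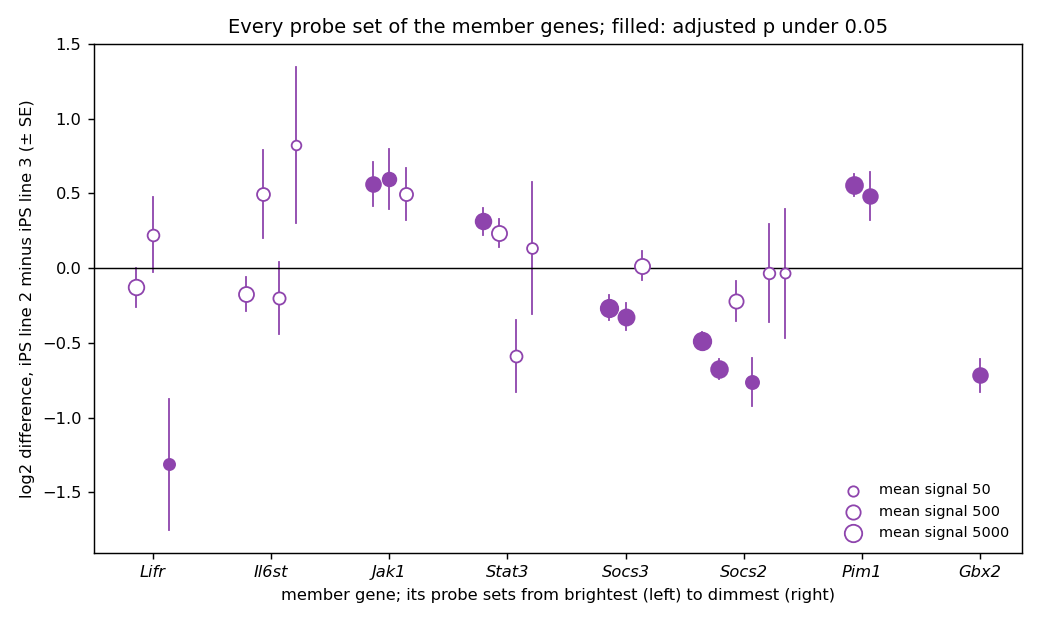
Log2 difference, iPS line 2 minus iPS line 3, of every one of the 26 probe sets (bars, SE), grouped by gene and ordered from brightest to dimmest, with larger points for brighter probe sets and filled points for a limma adjusted p under 0.05 in a fit over all probe sets. All 3 probe sets of Jak1 and both of Pim1 lie above 0 and all 6 of Socs2 below it, while those of Lifr, Il6st, Stat3 and Socs3 lie on both sides.

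All 26 probe sets, the 8 that stand for the genes included, were also tested in a fit of 25733 probe sets. In iPS line 2 against the ES line 8 of the 26 were called, 2 higher and 6 lower, beside 21.3% of all probe sets, and 4 of these were among the 18 that do not stand for a gene. In iPS line 2 against iPS line 3 12 of 26 were called beside 25.3%, and against iPS line 1 9 of 26 beside 17.8%. In iPS line 3 against the ES line 3 of 26 were called beside 2.46%, and limma called 0 of 26 for iPS line 1 against the ES line, for the mean of the lines and for iPS line 3 against iPS line 1, beside 1.35%, 4.83% and 0.715%. At an unadjusted p of 0.05, 6, 3 and 3 of the 26 passed in these last comparisons, beside 11.5%, 18.3% and 11.7% of all probe sets.

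Socs2 showed the closest repeat. Its probe set 1418507_s_at had 2110 and 2223 in iPS line 2, 3419 and 3512 in iPS line 3, 3119 and 3386 in iPS line 1, and 2748 and 2695 in the ES line, the same order as before with no overlap between iPS line 2, the ES line and the other lines. Its log2 difference from the ES line was -0.33 in iPS line 2 (limma adjusted p 0.00502) and 0.35 in iPS line 3 (0.0218). The dimmer Socs2 probe set 1438470_at had 150 and 147 in iPS line 2 against 232 to 293 in the other 6 arrays, and iPS line 2 was lower than the ES line by a log2 difference of -0.74 (0.00591). The 3 remaining Socs2 probe sets were not called in any comparison.

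Socs3 probe set 1456212_x_at had 1300 and 1544 in iPS line 2, 1753 and 1807 in iPS line 3, 2028 and 2131 in iPS line 1, and 1824 and 1707 in the ES line, and was lower in iPS line 2 than in the ES line by a log2 difference of -0.31 (limma adjusted p 0.0252). The third, 1416576_at, whose name carries no mark for related sequences, had 868 and 778 in iPS line 2, 779 and 847 in iPS line 3, 991 and 1060 in iPS line 1, and 835 and 825 in the ES line. On this probe set iPS line 2 overlapped iPS line 3 and the ES line, and only its difference from iPS line 1 was called (-0.31, adjusted p 0.0410). All 3 probe sets of Socs3 were thus lower in iPS line 2 than in iPS line 1, and 2 of 3 were lower than in the ES line by the test.

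For Jak1, all 3 probe sets had a positive difference between iPS line 2 and iPS line 3, and 2 of the 3 were called. The second probe set of Pim1, 1423006_at, had 706 and 809 in iPS line 2, 501 and 576 in iPS line 3, 598 and 484 in iPS line 1, and 718 and 504 in the ES line. It was called higher in iPS line 2 than in iPS line 3 (0.48, limma adjusted p 0.0449), whereas iPS line 2 and the ES line overlapped on it.

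Stat3 probe sets disagreed. The second brightest, 1460700_at, had 975 and 957 in iPS line 2, 857 and 784 in iPS line 3, 859 and 808 in iPS line 1, and 781 and 834 in the ES line, with iPS line 2 above all other arrays, but was not called. The dim probe set 1459961_a_at ran the other way, with 104 and 65.7 in iPS line 2, 138 and 125 in iPS line 3, 108 and 102 in iPS line 1, and 149 and 134 in the ES line, and was not called either. For Lifr, the dim probe set 1450207_at had 57.9 and 9.62 in iPS line 2, 82.3 and 88.2 in iPS line 3, 89.0 and 89.3 in iPS line 1, and 89.0 and 83.4 in the ES line. It was called lower in iPS line 2 than in the ES line (-1.33, limma adjusted p 0.0486), with 1 of the 2 arrays of iPS line 2 under the floor. It was also called lower in iPS line 2 than in iPS line 3 and in iPS line 1.

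Beside the 8 genes, 6 lists of pathway genes were counted, with 54 of 64 listed genes measured. Measured here means that a probe set annotated to the gene alone passed the filter on dim signals. Genes not measured may thus be on the array with a dim signal. In iPS line 2 against the ES line 10 of the 54 were higher and 11 lower, in iPS line 3 1 and 4, in iPS line 1 1 and 2, and for the mean of the lines 0 and 6, beside the shares of all genes given above. Between iPS line 2 and iPS line 3 15 were higher and 7 lower in iPS line 2, beside 19% and 12.1% of all genes. Between iPS line 2 and iPS line 1 the counts were 10 and 5, beside 13.8% and 9.53%. Between iPS line 3 and iPS line 1 they were 1 and 1, beside 0.35% and 1.06%.

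Of the IL6-family ligands, 4 of 10 were measured and limma called 0 of 4 in each comparison, with at most 1 of 4 at an unadjusted p under 0.05. The brightest were Ctf1 (cardiotrophin 1), with 160 to 260 over the 8 arrays, and Osm (oncostatin M), with 170 to 274. Of the other receptor chains, 4 of 6 were measured. In iPS line 3 against the ES line 1 was called lower, beside 2.58% of all genes. This was Il6ra, the IL6-binding chain, with 52.4 and 38.0 in iPS line 3 against 107 and 136 in the ES line, a log2 difference of -1.22 ± 0.29 (SE, n = 2 arrays each, limma adjusted p 0.0348). The 2 iPS line 3 arrays lay well below the ES line but close to the signal floor, and the call was lost under 8 of 19 alternatives, among them without ES replicate 1 (-1.38) or 2 (-1.06), without replicate 1 (-1.40) or 2 (-1.04) of iPS line 3, and without replicate 1 of iPS line 1 (-1.22, adjusted p 0.0512).

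Among the other JAK kinases and STAT factors, 8 of 9 were measured. In iPS line 2 against the ES line 1 was higher and 0 were lower, beside 16.1% and 10.6% of all genes. This was Stat5b, a STAT factor of growth hormone and cytokine signalling, with 142 and 171 in iPS line 2, 78.3 and 58.6 in iPS line 3, 85.1 and 78.2 in iPS line 1, and 81.4 and 62.2 in the ES line. Both iPS line 2 arrays exceeded all others, by a log2 difference of 1.01 ± 0.26 from the ES line (SE, n = 2 arrays each, limma adjusted p 0.0131). The call was lost without ES replicate 2 (0.84) and without replicate 2 of iPS line 2 (0.88).

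Of 13 other inhibitors of the pathway, all measured, 6 were higher and 1 lower in iPS line 2 against the ES line. Against iPS line 3 there were 7 higher and 1 lower, and against iPS line 1 5 higher and 1 lower. The shares of all genes higher and lower were 16.1% and 10.6%, 19% and 12.1%, and 13.8% and 9.53% in turn. In iPS line 1 against the ES line 1 was higher, beside 1.21% of all genes. The lower one was Pias2, a SUMO ligase that binds STAT proteins, with 3278 and 2949 in iPS line 2, 4166 and 3912 in iPS line 3, 4182 and 3818 in iPS line 1, and 4418 and 4623 in the ES line. Pias2 differed by -0.54 in iPS line 2 from the ES line (limma adjusted p 0.000185).
Of 6 other members of the Socs family, Socs4, Socs5 and Socs7 were higher in iPS line 2 than in the ES line, and Socs1, Socs6 and Cish were not called (-0.09, -0.13 and -0.28). Socs7 had 1189 and 999 in iPS line 2 against 654 to 798 in the other 6 arrays, and was higher than in the ES line by 0.65 (limma adjusted p 0.000602). Socs5 had 395 and 432 in iPS line 2 against 198 to 273 elsewhere, and was higher by 0.75 (0.00252). In both genes iPS line 2 stood clear of all other arrays.
Socs4 had 865 and 848 in iPS line 2 against 485 to 570 elsewhere, higher by 0.70 (limma adjusted p 0.000621), but by 0.12 (0.623) with the mean of its probe sets. Pias1, also a SUMO ligase, had 469 and 410 in iPS line 2 against 288 to 346 elsewhere, higher by 0.57 (0.00639), and by 0.48 (0.0608) without replicate 1 of iPS line 2.

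Of the adaptors, 6 of 7 were measured, and 2 were lower in iPS line 2 against the ES line, beside 10.6% of all genes. Yes1, a Src-family kinase, had 1713 and 1778 in iPS line 2, 2778 and 3090 in iPS line 3, 2286 and 2879 in iPS line 1, and 2847 and 2815 in the ES line, a log2 difference of -0.69 between iPS line 2 and the ES line (limma adjusted p 0.000214). iPS line 2 was below all the other arrays. The call of Gab1, a docking protein, at -0.15 (0.0495) was lost under 15 of 19 alternatives.

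Of 19 other genes described as STAT3 targets, all measured, 3 were higher and 8 lower in iPS line 2 against the ES line. The counts were 1 and 3 in iPS line 3, 0 and 2 in iPS line 1, and 0 and 5 for the mean. The shares of all genes higher and lower were 16.1% and 10.6%, 1.59% and 2.58%, 1.21% and 1.12%, and 4.27% and 3.03% in turn. The targets described next were named by smallest adjusted p, and all of them were lower in iPS line 2 than in the ES line. Others ran the other way. Ier3 had 923 and 996 in iPS line 2 against 306 to 677 elsewhere, and Zfp36 had 409 and 387 against 243 to 362. Klf4, also higher, is given further below. Ccnd1 (cyclin D1) had 2730 and 2832 in iPS line 2, 5303 and 5184 in iPS line 3, 4376 and 4428 in iPS line 1, and 3909 and 4227 in the ES line. It was lower in iPS line 2 (-0.55 against the ES line, limma adjusted p 4.90e-05) and higher in iPS line 3 (0.37, 0.00627), with no overlap between any of the 4 lines. The call for iPS line 3 was lost without ES replicate 1 (0.31) and without replicate 1 of iPS line 3 (0.35). It was also lost with the mean of all its probe sets (0.26, limma adjusted p 0.0526) and without the variance trend (0.125).
Zfp57, a zinc finger protein that maintains imprints, had 204 and 160 in iPS line 2 against 304 to 441 elsewhere, lower than in the ES line by a log2 difference of -1.09 (limma adjusted p 0.000261). Myc had 170 and 134 in iPS line 2 against 296 to 426 elsewhere (-1.30, 0.000155). Both were lower in iPS line 2 than in all other arrays.
Pramel7 had 40.7 and 28.2 in iPS line 2, 99.5 and 82.3 in iPS line 3, 59.4 and 71.9 in iPS line 1, and 176 and 191 in the ES line (-2.08 in iPS line 2, limma adjusted p 0.000150). The ES line stood above all iPS arrays, and 1 array of iPS line 2 was under the floor. For Rhox5, a homeobox gene, signals were 8239 and 7729 in iPS line 2, 9903 and 9460 in iPS line 3, 6548 and 6599 in iPS line 1, and 9365 and 9771 in the ES line. The log2 difference of iPS line 2 from the ES line was -0.26 (0.00485), and -0.23 (0.0503) without ES replicate 2. That of iPS line 1 was -0.54 (0.000283), and the iPS line 1 arrays were below all the others.

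The 8 genes were not alike in how they varied over the 8 arrays. Socs2 and Gbx2 varied together (Pearson r 0.93), as did Stat3 and Pim1 (0.84), and Pim1 ran against Socs2 (-0.88) and Gbx2 (-0.83). These values, and the likeness values that follow, describe 8 arrays of 4 lines, and arrays of a line share its cells. No p goes with them. In the comparisons of iPS line 2, 23.3% to 31.1% of all genes were called, and the likeness values are the highest among all genes tested. The genes most like Pim1 among all genes tested were Mapk9, Zswim1 and Mindy2 (r 0.99 each), and those most like Socs2 were Sephs1, Zdhhc3 and Pcolce2 (0.99 each). Gbx2 was closest to Gtpbp4 (0.98), Pax6 (0.98) and Rnmt (0.97), and Stat3 to Nsd2, Yod1 and Scai (0.98 each). Socs3 was closest to Smad1 (0.97), Stx5a (0.96) and Ccdc103 (0.96), and Jak1 to Krt6a (0.99), Pcbd2 (0.97) and Fcsk (0.96).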

How the data were processed

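The deposited values were intensity signals per probe set, which the authors made with MAS5 (submitters' processing notes). Its version, scaling target and detection calls were not given in the sources used here. Trimmed means were 500.004 in all 8 arrays, so signals were used as deposited, with gene names from the platform annotation. Of 45101 probe sets, 64 were controls and 34945 had 1 symbol. Of these single-symbol probe sets, 25733 exceeded 37.1, the 40th percentile of signals, in at least 2 arrays. The brightest stood for its gene. Values were log2(signal + 12.4), the 20th percentile.

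limma 3.58.1 in R 4.3.3 (lmFit, eBayes with trend) fitted the 4 lines, with 4 residual degrees of freedom and 12.4 after moderation. The tests were two-sided and Benjamini-Hochberg adjusted over 14004 genes, and the procedure was tested on simulated data. Fold changes on this scale understate those of dim genes. Replicate arrays of a line correlated at 0.981 to 0.983. The numbers did not pair the arrays: the correlation of same-numbered deviations was over 0.1 in 0 of 6 pairs of lines.

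The members and lists were chosen with earlier results of these data known. Pathway genes are named where called against the ES line, at most 5 per list by adjusted p, or the 2 brightest of a list with none. Likeness names the 3 genes with the highest r. Lif, Klf4, Tfcp2l1, Ier3 and Zfp36 were named after their values were seen. Alternatives changed scaling, pseudocount, filter, probe-set rule, variance trend, arrays used, replicate block and unit of replication.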

Additional observations from a re-analysis of the deposited data

Results flagged for a closer look

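The contrast with the ES line differed between iPS lines for 6 of the 8 genes, by limma's direct test of one line against another. Of all genes tested, 31.1% were called between iPS line 2 and iPS line 3. Between iPS line 2 and iPS line 1 it was 23.3%, and between iPS line 3 and iPS line 1 1.41%. iPS line 2 minus iPS line 3 gave log2 differences of 0.57 for Jak1, 0.31 for Stat3, 0.56 for Pim1, -0.26 for Socs3, -0.49 for Socs2 and -0.72 for Gbx2. iPS line 2 minus iPS line 1 gave 0.51 for Pim1, -0.62 for Socs3, -0.46 for Socs2 and -0.62 for Gbx2. All 10 involve iPS line 2, whose arrays also stood apart in the actin ratio, in Pdgfrb, in some pluripotency markers and in their higher median signal. The part of the actin ratio, of Pdgfrb and of these markers in the differences was not tested. Centring each array on its median was run as an alternative.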

How the results depend on the processing

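Of 56 results (8 genes in 7 comparisons), 17 were called. In iPS line 2 against the ES line 4 were called, beside 26.7% of all genes. Against iPS line 3 it was 6 beside 31.1%, and against iPS line 1 4 beside 23.3%. The rest were 2 in iPS line 3 (4.17%) and 1 in iPS line 1 (2.34%) against the ES line. The comparisons share arrays, so the 56 results are not independent. Under all alternatives run, 7 of the 17 kept their call, all of them in comparisons of iPS line 2, and 0 turned in direction. Of 39 results not called, 8 gained a call under some alternative and 19 changed sign. Without the variance trend the genes called fell to 289 of 1022 for the mean of the iPS lines against the ES line, to 2443 of 3738 for iPS line 2, 22 of 584 for iPS line 3 and 48 of 327 for iPS line 1, to 1858 of 3266 for iPS line 2 against iPS line 1 and to 17 of 198 for iPS line 3 against iPS line 1. For the mean, 492 were called without iPS line 2, and limma called 0 with line means as samples (280 at an unadjusted p under 0.05), where fewer samples enter. Averaging a gene's probe sets gave 356 for iPS line 3 and 214 for iPS line 1. Leaving out each array in turn gave 321 to 978 for the mean, 182 to 603 for iPS line 3, 109 to 349 for iPS line 1 and 52 to 192 for iPS line 3 against iPS line 1. The lowest values for the mean, 321 and 422, came without ES replicate 1 and 2. The replicate number as a block, although it did not pair the arrays, gave 1035 calls for the mean and 3780 for iPS line 2, and changed no count of calls among the 8 genes. Centring each array on its median moved the share of higher calls to 46.1% against 60.4% for iPS line 2, 51.3% against 38.2% for iPS line 3, 63.1% against 52% for iPS line 1, 41.3% against 61% for iPS line 2 minus iPS line 3 and 34.8% against 59.1% for iPS line 2 minus iPS line 1.

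The sign turned in these results, none of them called. With the mean of all probe sets the mean of the iPS lines gave -0.22 for Lifr, 0.18 for Il6st and -0.091 for Socs2, iPS line 2 gave 0.25 for Il6st against the ES line and 0.24 against iPS line 3, iPS line 3 gave -0.13 for Lifr against the ES line and 0.040 for Stat3 against iPS line 1, and iPS line 1 gave -0.030 for Socs2. Quantile normalization gave -0.00012 for Lifr (mean) and -0.0050 for Socs2 (iPS line 3 minus iPS line 1), centring gave 0.044 for Socs3 (iPS line 3), and leaving out iPS line 2 gave 0.071 for Il6st and -0.10 for Pim1 (mean). Leaving out single arrays gave -0.052 to 0.092 for Lifr, -0.099 to 0.094 for Il6st, -0.053 to 0.12 for Socs3 and -0.0037 to 0.16 for Pim1 in the mean, -0.33 to 0.10 for Lifr in iPS line 2, and -0.052 to 0.086 for Lifr, -0.074 to 0.12 for Il6st, -0.032 to 0.12 for Stat3 and -0.086 to 0.083 for Socs3 in iPS line 3. It gave -0.16 to 0.0014 for Pim1 in iPS line 1, -0.34 to 0.086 for Lifr between iPS lines 2 and 3, and -0.20 to 0.0091 for Il6st and -0.39 to 0.034 for Jak1 between iPS lines 3 and 1. The cause was not tested. Calls depended on 2 arrays per line, and on signals near the floor the dim probe sets carry little order.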

Other observations

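The values of 3 genes of the lists counted above are also given, chosen after their values were seen. Klf4 and Tfcp2l1 are among the 19 STAT3 targets, of which 3 were higher and 8 lower in iPS line 2 against the ES line. These counts stand beside 16.1% and 10.6% of all genes. Klf4, a transcription factor induced through Stat3, had signals of 17806 and 19375 in iPS line 2, 14183 and 15057 in iPS line 3, 16847 and 17006 in iPS line 1, and 15127 and 14952 in the ES line. iPS line 2 stood above all other arrays, and Klf4 was higher there than in the ES line by 0.30 log2 units (limma adjusted p 0.00168), which missed the threshold without the intensity trend (0.0554). Tfcp2l1, also a factor that acts below Stat3, had 6694 and 6614 in iPS line 2, 5668 and 5542 in iPS line 3, 6096 and 5779 in iPS line 1, and 6730 and 6447 in the ES line. iPS line 2 overlapped the ES line, with a log2 difference of 0.01 (limma adjusted p 0.893), and iPS line 3 was lower than the ES line (-0.23, 0.0421). That call was lost after median centring (-0.19) and without ES replicate 1 (-0.20) or 2 (-0.26). Leaving out replicate 1 (-0.25) or 2 (-0.22) of iPS line 3 or replicate 1 of iPS line 1 (-0.23) also lost it. So did leaving out the filter on dim probe sets (limma adjusted p 0.0585), fitting each probe set as its own row (0.0624) and leaving out the variance trend (0.240).

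Lif, the ligand itself, had 138 and 128 in iPS line 2, 114 and 109 in iPS line 3, 88.0 and 82.9 in iPS line 1, and 116 and 115 in the ES line. The array values of the lines did not overlap, but the largest difference, 0.57 between iPS line 2 and iPS line 1, had a limma adjusted p of 0.0719.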
